A study of Caenorhabditis elegans with 34 samples.

Results

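The genes described here are 73 autosomal Caenorhabditis elegans genes whose RNA lay lower in glp-4(bn2) mutant worms than in wild-type (N2) worms at larval stages L3 and L4 and in adults. They were chosen by the measured values themselves. In group means of the log2 ratio, glp-4 had to lie at least 0.7 below wild type at L3 and at least 0.8 below it at L4 and in adults, and the mean log2 ratio of fem-3 over fem-1 mutants had to be under 1. Candidates, counted below as genes, were the 3857 probes that the annotation lists under a sequence name without a hyphen, such as C16A11.4. Their genes were not placed on chromosome X. Of these, 3148 had every value the selection needed, and the arrays carried 5543 different gene names in all. The genes bear the working label of germline genes that are on from L3. At L2, a stage the selection did not use, 64 of the 69 genes measured lay lower in glp-4, beside 51.6% of all probes. Like sets that met the limits only from L4 on, or only in adults, had 72.3% and 71.1% lower. The genes share arrays and are no independent points, so these shares were not tested. Only 1 of the 69 was called lower there by limma, and the call held in 4 of 11 alternatives. In wild type the median change between L2 and L3 was -0.01, or 0.14 with 53 of 70 genes higher without L3 replicate 4. The word "from" is thus in doubt for the set, and L2, with at most 3 arrays per strain, does not decide it for single genes.

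The germ line of C. elegans grows throughout larval life from a few precursor cells. Stem cells at the distal end of the gonad divide, their descendants enter meiosis, and in hermaphrodites sperm are made late in larval life before the gonad turns to oocytes. glp-4 encodes a valyl-tRNA synthetase, and the temperature-sensitive allele bn2 is known to arrest germ cells early, so that a small number of germ cells remain at the restrictive temperature; the labels call these worms ones without a germ line. In whole-worm RNA, fewer germ cells and less RNA per germ cell cannot be told apart.

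Messenger RNA was compared on 34 spotted arrays with a red and a green channel each. On 29 arrays worm RNA was set against a pool of wild-type reference RNA. For glp-4(bn2) there were 3 L2, 4 L3, 4 L4 and 4 adult arrays, and for wild type 3 L2, 4 L3, 4 L4 and 3 adult arrays. Per the labels these worms were synchronized, and those called adults here were young adults. A further 5 arrays compared RNA of fem-3(q23) worms, in red, with RNA of fem-1(hc17) worms, in green. At the restrictive temperature of 25 °C the gain-of-function allele fem-3(q23) gives a female soma with a sperm-making germ line, and the loss-of-function allele fem-1(hc17) gives a female soma with oocytes and no sperm. Per the labels the fem worms grew at 15 °C; the time of their shift and the growth temperature of the glp-4 and wild-type worms are not stated there.

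A level below is the log2 ratio of worm over reference pool, and a strain difference is glp-4 minus wild type, so a negative difference is lower in glp-4. Each reference array held 10155 to 11696 values, with array medians over all probes between -0.22 and 0.05. Each fem array held 12215 to 13295 values, with medians between -0.09 and 0.32. Of the 73 genes, 49 had a value on all 34 arrays. All L2 arrays name the pool REF-vjr, all adult arrays name a mixed control, and L3 and L4 have both wordings in both strains, so levels at L2 and in adults may rest on different pools while strain differences within a stage do not. The labels disagree on the stage within wild-type L4 replicate 1, wild-type L4 replicate 4 and glp-4 L2 replicate 1. Adult arrays are marked T4 in their titles, apart from glp-4 replicate 1 with T5, and without that array the median adult difference of the set stayed at -2.66. Over the 73 genes, wild-type L4 replicate 2 lay above the other L4 arrays of its strain and wild-type L3 replicate 4 below the other L3 arrays, with medians of 0.39 and -1.09, and results that rest on them are also given without them. Each array carries its own lot number, so no lot holds more than 1 array.

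The 73 genes were low in glp-4 by amounts that were largest in adults. These 3 differences chose the genes and are given as a description. The median difference was -1.13 at L3, -1.44 at L4 and -2.66 in adults, beside medians over all probes of -0.02, 0.06 and 0.17. The difference was larger at L4 than at L3 in 65 of the 73 genes, larger in adults than at L4 in 72, and larger in adults than at L3 in all 73. These counts were not made over all genes. The 90 candidates that met all limits but that at L3 had medians of -0.36, -1.07 and -2.14. A difference that was largest in adults was thus not particular to the set. Without wild-type L3 replicate 4 and L4 replicate 2 the median was -1.27 at both L3 and L4, so the step between these stages rests on those arrays. The limma fit called 40 of them lower at L3, where 2.15% of all probes were called lower, 69 at L4, where 11.8% were, and 73 in adults, where 20.3% were, and nothing is read from these counts. Within arrays of 1 reference wording the median difference was -1.01 at L3 and -1.38 at L4 for REF-vjr and -1.19 and -1.68 for the mixed control, with 73 of 73 genes lower in glp-4 in each of these 4 sets of arrays.

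Between L3 and adults the level of the set moved in wild type and hardly in glp-4. The mean of the array medians over the set was -1.06 ± 0.13 in glp-4 and -0.59 ± 0.05 in wild type at L2 (SD, n = 3 each). At L3 it was -1.69 ± 0.22 in glp-4 and -0.60 ± 0.37 in wild type, and at L4 -1.77 ± 0.11 in glp-4 and -0.29 ± 0.50 in wild type (SD, n = 4 each). In adults it was -1.69 ± 0.22 in glp-4 (SD, n = 4) and 0.90 ± 0.24 in wild type (SD, n = 3). The glp-4 arrays stood within -1.89 and -1.39 from L3 on, while the 3 adult wild-type arrays were the highest of all. Without the array that stood apart, the wild-type mean was -0.44 ± 0.23 at L3 and -0.52 ± 0.26 at L4 (SD, n = 3 each). On mixed control arrays alone, which include all adult ones, the L3 means were -1.87 in glp-4 and -0.67 in wild type.

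The steps between stages differed between the strains. Between L2 and L3, the glp-4 level was lower at L3 in 72 of 72 genes, with a median change of -0.69, whereas in wild type 34 genes were higher at L3 and 36 lower, with a median change of -0.01. On REF-vjr arrays alone the same changes were -0.55 in glp-4, lower in 66 of 69 genes, and 0.03 in wild type, higher in 38 of 69. Between L3 and L4 the median change was -0.06 in glp-4 and 0.36 in wild type, where 64 of 73 genes were higher. Between L4 and adults it was 0.15 in glp-4 and 1.13 in wild type, where all 73 were higher. The wild-type step between L3 and L4 rests on wild-type L4 replicate 2 and L3 replicate 4: without both, its median was -0.001 with 36 genes higher and 37 lower. Without them the wild-type change between L2 and L3 had a median of 0.14, with 53 of 70 genes higher, and that between L4 and adults one of 1.39, with all 73 genes higher. The L3, L4 and adult means in these changes also entered the selection, so none was tested. Over all 3148 genes with every value, the L4-to-adult change in wild type had a median of -0.16, with 1209 higher. In wild type 1644 of the 3148 were higher at L4 than at L3, and 1520 of 2934 higher at L3 than at L2. In glp-4 1710 of 2949 were lower at L3 than at L2. Of the 90 genes that met all limits but that at L3, 71 of 85 measured were lower at L3 than at L2 in glp-4. In wild type 19 of 85 were higher at L3 than at L2, 85 of 90 higher at L4 than at L3, and 87 of 90 higher in adults than at L4.

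**Figure D1:**
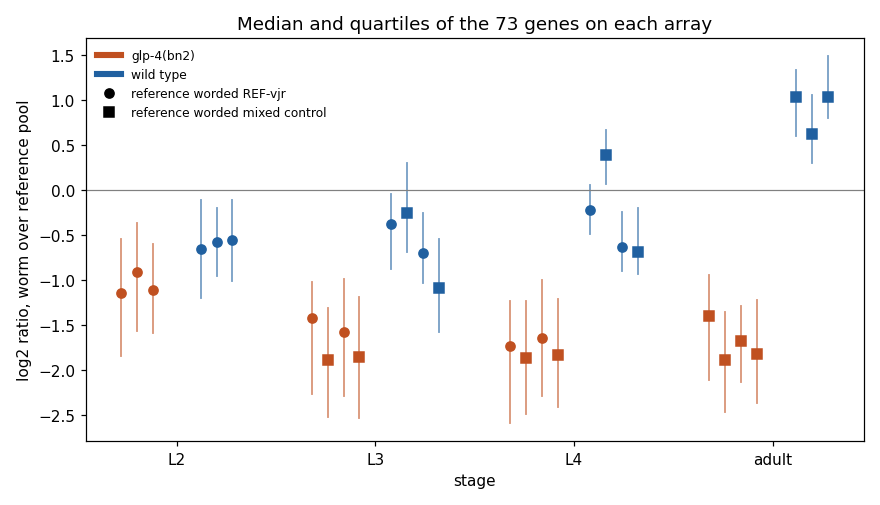
The median log2 ratio of worm over reference pool over the 73 genes on each of the 29 arrays (points, with quartiles as lines), by stage, with glp-4(bn2) left of wild type in each stage and the reference wording shown by the shape of the point. The glp-4 arrays lie between -1.15 and -0.91 at L2 and no higher than -1.39 later, and the adult wild-type arrays lie between 0.62 and 1.04.

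L2 was the only stage whose strain difference did not enter the selection. The 3 glp-4 arrays had medians over the set of -1.15, -0.91 and -1.11 there, against -0.65, -0.58 and -0.55 on the 3 wild-type arrays, and the strains did not overlap. Nor did they in the 90 genes that met all limits but that at L3, with -0.93 to -0.87 against -0.75 to -0.70. In 300 candidates that met only the adult and fem limits, the glp-4 medians were -0.47 to -0.36 against -0.30 to -0.29 in wild type. Of the 69 genes measured at L2, 64 lay lower in glp-4 and 5 higher, with a median difference of -0.40 and quartiles of -0.62 and -0.19. The median over all 10272 probes tested was -0.01. By limma with Benjamini-Hochberg adjustment over all probes, 1 of the 69 genes fell in glp-4 at L2, namely C16A11.4, where 0.224% of all probes were called lower. At an unadjusted p of 0.05, 18 of the 69 genes lay lower and 0 higher, where 7.18% of all probes lay lower. In 29 of the 69 every glp-4 array lay below every wild-type array, a share of 42%, beside 12.9% of all probes. The share was 21.7% in the genes low from L4 on and 23.7% in those low in adults only.

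The size of the early difference varied within the set. A difference of 0.7 or more, the limit used at L3, was present already at L2 in 15 of the 69 genes, or 21.7%, beside 3.54% of the 2879 candidate genes measured there. Another 49 genes lay between that limit and 0, 5 lay above 0, and 4 had too few L2 values. Genes with a larger difference at L2 tended to have a larger one at L3, with Pearson's r of 0.62 and Spearman's rho of 0.49 over the 69 genes, which share arrays and so are no independent points. For comparison, 90 candidate genes met the limits at L4 and in adults and the fem limit but not the L3 limit. Their median difference at L2 was -0.17, 60 of the 83 measured lay lower, and limma called 0 of them, with 3 lower at an unadjusted p of 0.05. In the 300 candidates that met only the adult and fem limits the median was -0.13, and 204 of 287 measured lay lower. limma called 0 of these lower and 1 higher, with 27 lower and 5 higher at an unadjusted p of 0.05. The difference between these sets of genes was not tested.

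**Figure D2:**
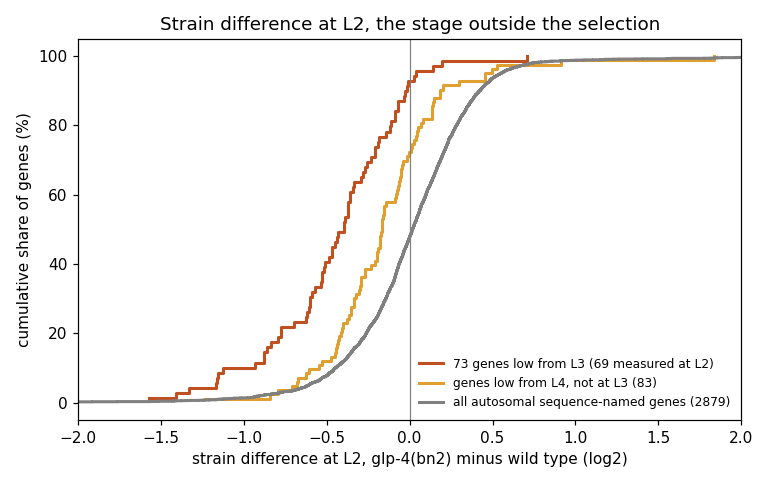
Cumulative share of genes (percent) by strain difference at L2, glp-4(bn2) minus wild type in log2 units, for the 69 of the 73 genes measured there, 83 genes that met the limits only from L4 on, and all 2879 candidate genes measured; the axis ends at 2 units on either side. The curve of the 69 genes lies to the left, with its median at -0.40, and the curve of all candidates crosses its median near 0.02.

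C16A11.4, on chromosome II, was the clearest of the genes at L2. Its level was -1.67, -1.84 and -1.68 on the glp-4 arrays, against -0.10, -0.12 and -0.28 on the wild-type arrays. The strains stood apart on every array, and the difference of -1.57 ± 0.33 (SE) had an adjusted p of 0.0317 by limma. That call was lost when any L2 array other than glp-4 replicate 1 was left out, when the L2 arrays were fitted alone, and when only probes with all 6 L2 values were kept. Over 11 alternatives the difference stayed between -1.63 and -1.51, while the adjusted p ran from 0.01 to 0.18. At L3 the level was -2.43, -2.48, -1.94 and -2.57 in glp-4 and -0.12, 1.03, -0.79 and -0.73 in wild type. In adults it was -1.93, -2.45, -2.34 and -2.55 in glp-4 and 1.53, 1.36 and 1.91 in wild type, a difference of -3.92 ± 0.31 (SE).

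C16C8.16, also on chromosome II, had the largest difference at L3 among the 73 genes. At L2 its level was -3.82, -2.89 and -2.92 in glp-4 and -2.02, -1.90 and -1.48 in wild type, without overlap, and the difference of -1.41 ± 0.39 (SE) had an adjusted p of 0.115 by limma. At L3 it was -3.38, -4.12, -3.69 and -3.48 in glp-4 and -0.18, -1.35, -0.69 and -1.87 in wild type, a difference of -2.65. In wild type its group mean was 0.78 higher at L3 than at L2. Adult glp-4 arrays gave -2.39, -3.86, -3.03 and -3.17, against 0.40 and 0.50 on the 2 wild-type arrays with a value.

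Next to C16A11.4 in the L2 test stood F13D12.5, T07C4.3 and B0001.2, none of them called. F13D12.5 had -0.95, -0.79 and -0.82 in glp-4 and 0.23, 0.30 and 0.29 in wild type at L2, a difference of -1.13 ± 0.27 (SE) with an adjusted p of 0.0601 by limma, or 0.0352 with the batch number as a block, which makes it a call. T07C4.3 had -1.81, -1.57 and -1.64 in glp-4 and -0.16, -0.23 and -0.64 in wild type, a difference of -1.33 ± 0.36 (SE) with an adjusted p of 0.109 by limma. B0001.2 had -1.04, -1.73 and -1.87 in glp-4 and -1.04, 0.16 and -0.25 in wild type, a difference of -1.17 ± 0.32 (SE) with an adjusted p of 0.11 by limma. The first 2 of these genes separated the strains clearly on every L2 array, whereas B0001.2 was nearly equal on replicate 1 of each strain. In adults the difference of T07C4.3 was -4.27 and that of F13D12.5 -2.80, and B0001.2 reached only -2.06 and had a smaller difference at L4, -0.996, than at L3, -1.31.

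The other 14 of the 18 genes at or below an unadjusted p of 0.05 at L2 were C16C8.16, F21F3.4, F45F2.11, C55B7.11, F32A11.4, K07A1.1, C39E9.12, C16A11.3, T19H12.2, F33E11.2, F14D2.8, B0024.11, F40F8.5 and C37A2.8 in order of their L3 difference, and none passed the adjusted threshold. C39E9.12 had narrow groups at L2, with -1.14, -1.19 and -1.16 in glp-4 and -0.22, -0.36 and -0.33 in wild type. K07A1.1 had -2.45, -2.52 and -1.94 in glp-4 and -1.54, -1.34 and -1.38 in wild type there, and an adult difference of -3.46. F33E11.2 had -1.51, -1.56 and -1.89 in glp-4 and -0.80, -0.84 and -0.999 in wild type at L2. The strains did not overlap at L2 in any of these 3 genes.

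K08F4.3 and T05F1.2 had overlapping strains at L2. K08F4.3 had -2.22, -2.99 and -2.33 in glp-4 and -2.44, -2.06 and -1.92 in wild type there, a difference of -0.37 ± 0.36 (SE), close to the median of the set. At L3 it had -2.58, -2.67, -3.48 and -3.32 in glp-4 and -1.24, -0.75, -0.96 and -2.38 in wild type, and the arrays no longer overlapped. Its wild-type mean was 0.81 higher at L3 than at L2, a step exceeded among 70 genes only by that of F07H5.10, 0.92. T05F1.2 had -3.01, -2.88 and -2.63 in glp-4 and -3.35, -2.33 and -2.75 in wild type at L2, a difference of -0.03 ± 0.46 (SE). Its difference at L3, -0.72, lay just inside the limit with the strains overlapping. In adults it had -3.12, -3.69, -3.38 and -3.87 in glp-4 and 1.56, 0.02 and 1.09 in wild type, a difference of -4.41, so that its difference grew by more between L3 and adults than that of any other gene of the set.

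The 5 genes whose L2 difference was above 0 were R11A8.1, T23B5.3, K06H7.7, C42C1.8 and C04C3.4, with adjusted p of 0.915 to 0.993 by limma. R11A8.1 rests on 2 values per strain at L2, -0.72 and 2.92 in glp-4 and 1.38 and -0.59 in wild type, and its difference of 0.71 ± 1.15 (SE) is smaller than its error. T23B5.3 had 0.17, 0.41 and 0.18 in glp-4 and 0.00, 0.15 and 0.02 in wild type, where every glp-4 array lay above every wild-type array. The same held for 1012 of the 10272 probes tested at L2. K06H7.7, C42C1.8 and C04C3.4 had differences of 0.14, 0.04 and 0.03 with overlapping arrays. C42C1.8 had 1 wild-type L2 array at -2.30, far below the other values of -0.48 and -0.85. Without that array its difference was -0.51.

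**Figure D3:**
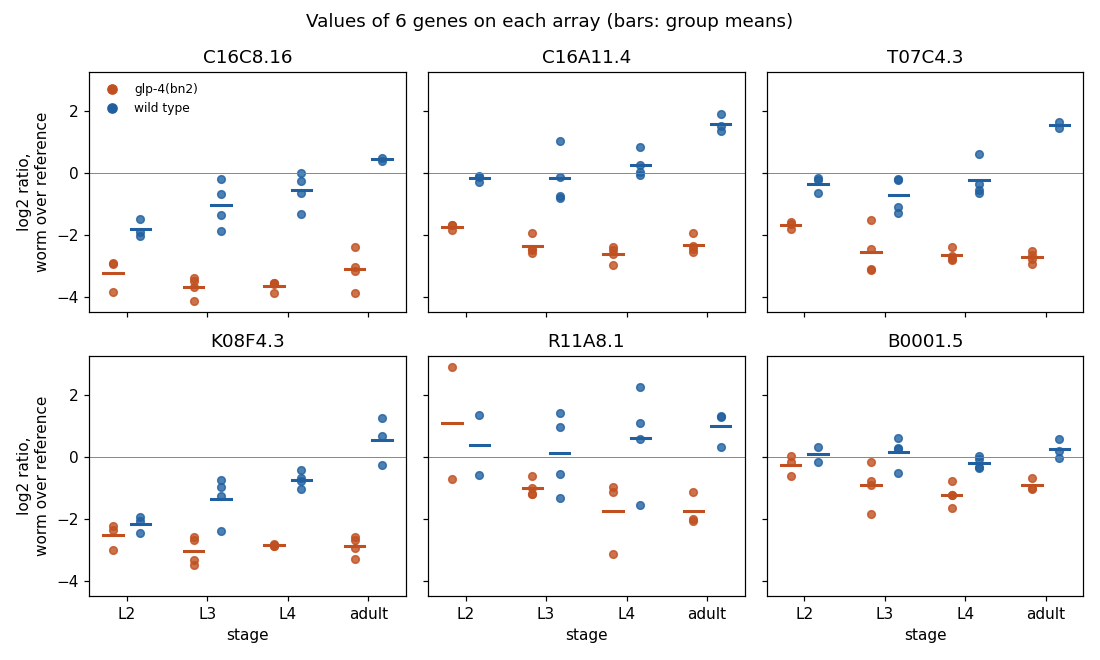
The log2 ratio of worm over reference pool on each array for 6 genes, by stage, with glp-4(bn2) left of wild type and group means as bars. C16C8.16, C16A11.4 and T07C4.3 separate the strains from L2 on, K08F4.3 from L3 on, R11A8.1 varies widely at L2, and B0001.5 differs by about as much in adults (-1.16) as at L3 (-1.07).

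Most of the other genes with the largest L3 differences had their largest difference in adults, but ZC434.8 did not, with -1.64 at L3, -3.38 at L4 and -2.69 in adults. F45F2.11 on chromosome V had an L3 difference of -1.86 and an adult one of -4.41, with adult levels of -2.68, -3.04, -3.51 and -3.06 in glp-4 and 1.07, 1.27 and 1.68 in wild type. F21F3.4 and C55B7.11, on chromosome I, had L3 differences of -1.86 and -1.77 and adult ones of -2.77 and -2.99. In F21F3.4, glp-4 L3 replicate 1 stood at -1.15 while the other 3 glp-4 arrays lay between -2.84 and -2.67, so the strains overlapped there. C28A5.2 and T28A8.6, on chromosome III, had too few L2 values to test and L3 differences of -1.68 and -1.60. F32A11.4, annotated as a pseudogene, had a smaller difference at L4, -1.43, than at L3, -1.68, and its level at L2 was 0.24, 0.015 and -0.49 in glp-4, against 0.79, 0.51 and 1.25 in wild type.

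The size of the later growth also varied. The difference changed by a median of -1.42 between L3 and adults. T05F1.2, T19H12.2, K06H7.1 and B0304.2 grew most, by -3.69, -3.49, -2.83 and -2.66. T19H12.2 had the largest adult difference of the set, -4.74, with -3.83, -2.62, -2.32 and -2.46 in adult glp-4 worms and 2.31, 0.97 and 2.53 in adult wild-type worms. B0001.5, F53C11.5, C30G12.6 and C42C1.8 grew least, by -0.09, -0.20, -0.41 and -0.69. B0001.5 had -0.69, -1.01 and -1.03 on the adult glp-4 arrays with a value and 0.20, -0.03 and 0.58 on the wild-type arrays, close to the spacing it had at L3. F53C11.5 was one of a pair of genes whose adult arrays overlapped, with 0.59 on glp-4 replicate 1, above 0.39 on a wild-type array.

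The genes just inside and just outside the L3 limit lay close together. T05F1.2 and C35D10.7 at -0.72, C37A2.8 at -0.72 and C04C3.4 at -0.73 were the nearest inside. F35G12.5 and T24C4.5 at -0.69 and ZK512.7 and T22D1.5 at -0.68 met every other condition and were left out. F35G12.5 had an L2 difference of -0.40 and an adult one of -1.83, and no overlap between the strains at L3, whereas the SE of ZK512.7 at L3 was 2.13. The standard errors of the nearest genes inside were 0.20 to 0.40, several times the distance between the sides of the limit.

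The fem comparison, of which the selection used only an upper limit of 1, showed RNA of most of the 73 genes lower in the sperm-making fem-3 worms than in the oocyte-making fem-1 worms. The mean log2 ratio of fem-3 over fem-1 had a median of -0.93 over the set and lay below 0 in 66 genes and above it in 7. In 53 genes every array with a value lay below 0, and in 2, K08F4.3 and T23B5.3, every array lay above. Of the 73 genes 90.4% lay below 0, and like sets under the same fem limit had similar shares, 87.8% of the 90 genes low from L4 on and 88.3% of 300 genes low in adults only. Among all 2523 candidates under that limit 44.7% lay below 0, with a median of 0.08, and among all 3148 without it 35.9%, with a median of 0.25. All 5 arrays had fem-3 in red, so a dye effect cannot be told apart from a strain effect. The third array carries the title of the second with the mark of a repeat, so its independence is not known, and the first was scanned with other software than the rest.

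T05F1.2 had the lowest fem ratio, with -1.81, -2.53, -3.07, -2.22 and -2.62 on the 5 arrays. C27D9.1 had -1.75, -2.20, -2.69, -1.95 and -2.73. Both were lower in fem-3 on every array by a margin well beyond the spread. At the other end stood ZC434.8, whose mean of 0.99 was just under the limit and whose arrays gave 1.37, -0.73, 1.35, 1.69 and 1.25. Without the array at -0.73 ZC434.8 would have passed the limit and been left out. F36G9.13 had -0.05, 0.23, 2.14, 1.21 and 0.13, and T23B5.3 had 1.12, 0.57, 0.67, 0.67 and 0.39. The nearest gene left out was K07H8.9, with a mean of 1.18.

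The fem limit divided a larger group of genes at a sparsely filled place. Of 135 candidates that met all 3 limits on the strain difference, 62 were at or above 1 in fem-3 over fem-1, with a median of 4.80 and a highest mean of 6.84. At L2, which played no part in either limit, those 62 genes had a median strain difference of 0.12, with 20 of 58 measured lower in glp-4, beside 64 of 69 among the 73 genes. The difference between these shares was not tested. Within the 73, the 7 genes with a fem mean above 0 had a median L2 difference of -0.02 and the 66 below 0 one of -0.46. The wild-type change between L4 and adults had a median of 0.48 in those 7 genes and 1.25 in the 66.

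**Figure D4:**
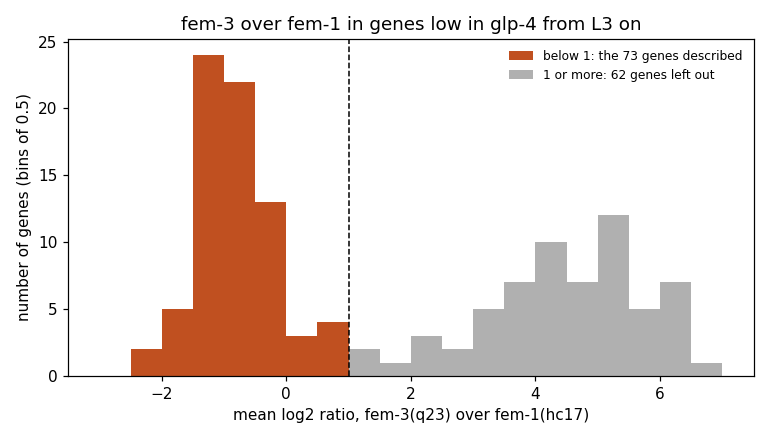
Number of genes by mean log2 ratio of fem-3(q23) over fem-1(hc17), in bins of 0.5, among the 135 candidates that met the strain limits at L3, L4 and in adults; the dashed line marks the limit of 1. The 73 genes described lie mostly below 0, and most of the 62 genes left out lie above 3.

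The set was unevenly spread over the autosomes. Chromosome II held 24 of the 73 genes, or 32.9%, beside 21.5% of the 3148 candidates. Chromosome III held 16, or 21.9% beside 13.6%, and chromosome IV 16, or 21.9% beside 18.8%. Chromosome I held 8, or 11% beside 17.1%, and chromosome V 9, or 12.3% beside 28.5%. The 90 genes low from L4 on had 18.9% on chromosome II and 22.2% on chromosome V. These shares are a description, since neighbouring genes are not independent. In the RefSeq gene table (assembly WBcel235) 70 of the 73 are protein-coding and 3 are pseudogenes, F32A11.4, F32A11.5 and K11H3.4.

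Some of the genes were neighbours. In the order of protein-coding genes and pseudogenes in that table, 17 of the 73, or 23.3%, had another gene of the set within 10 gene steps. Of the 3121 candidates in that order, 8.01% had one of the 73 so near. Of the 90 genes low from L4 on, 17.8% had another such gene within 10 steps and 4.44% had one directly adjacent, and the difference between the sets was not tested. Directly adjacent genes made up 11% of the set, against 1.25% of candidates with a gene of the set next to them. These 17 genes formed 7 groups. Whether related neighbours share a probe signal was not tested, as probe sequences were not used here.

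The largest group was C16C8.4, C16C8.16, C16C8.14 and C16C8.11, 4 genes within a stretch of 10 on chromosome II. Their L3 differences were -1.42, -2.65, -1.29 and -1.39, and their adult ones -3.42, -3.56, -2.75 and -2.35. At L2, C16C8.16 stood apart at -1.41, while the other 3 lay between -0.47 and -0.36 with overlapping arrays. gldi-6, which lies among them, also lay lower at each stage, by -0.47, -0.76, -1.25 and -1.21. Pairs of these 4 genes correlated over the 29 reference arrays at 0.90 to 0.95, where all pairs of the 73 had a median r of 0.82 and 5% to 95% limits of 0.63 and 0.93.

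C16A11.4 lies next to C16A11.3, also on chromosome II, and this pair had r = 0.96. C16A11.3 had -0.89, -0.90 and -0.88 in glp-4 and -0.10, 0.09 and -0.16 in wild type at L2, a difference of -0.84 ± 0.28 (SE) that limma did not call, with an adjusted p of 0.231. The strains did not overlap in either gene at L2, and the difference in C16A11.4 was the larger at every stage. The adjacent pseudogenes F32A11.5 and F32A11.4 had L3 differences of -1.05 and -1.68, and the adjacent C28A5.1 and C28A5.2 on chromosome III had -1.50 and -1.68.

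Some probes enclosed by the remaining groups behaved otherwise. Between K06H7.7 and K06H7.1 on chromosome III lie K06H7.8, with a fem mean of 4.93, and K06H7.2, with strain differences above 0 at all 4 stages. Between F01G4.4 and C08F8.3 on chromosome IV lies F01G4.6, whose difference was -1.27 at L2, -0.95 at L3, -0.32 at L4 and 0.37 in adults, the reverse of the course of the set. Also in this group, pigq-1 and C08F8.2 had -0.03 and -0.23 at L3 and 0.31 and -1.26 in adults. B0001.5, B0001.2 and B0001.7 on chromosome IV had L3 differences of -1.07, -1.31 and -0.98 and pair correlations of only 0.57 to 0.81. B0001.3 among them had -0.69 at L3, -0.37 at L4 and -1.80 in adults, and so missed the L3 and L4 limits.

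**Figure D5:**
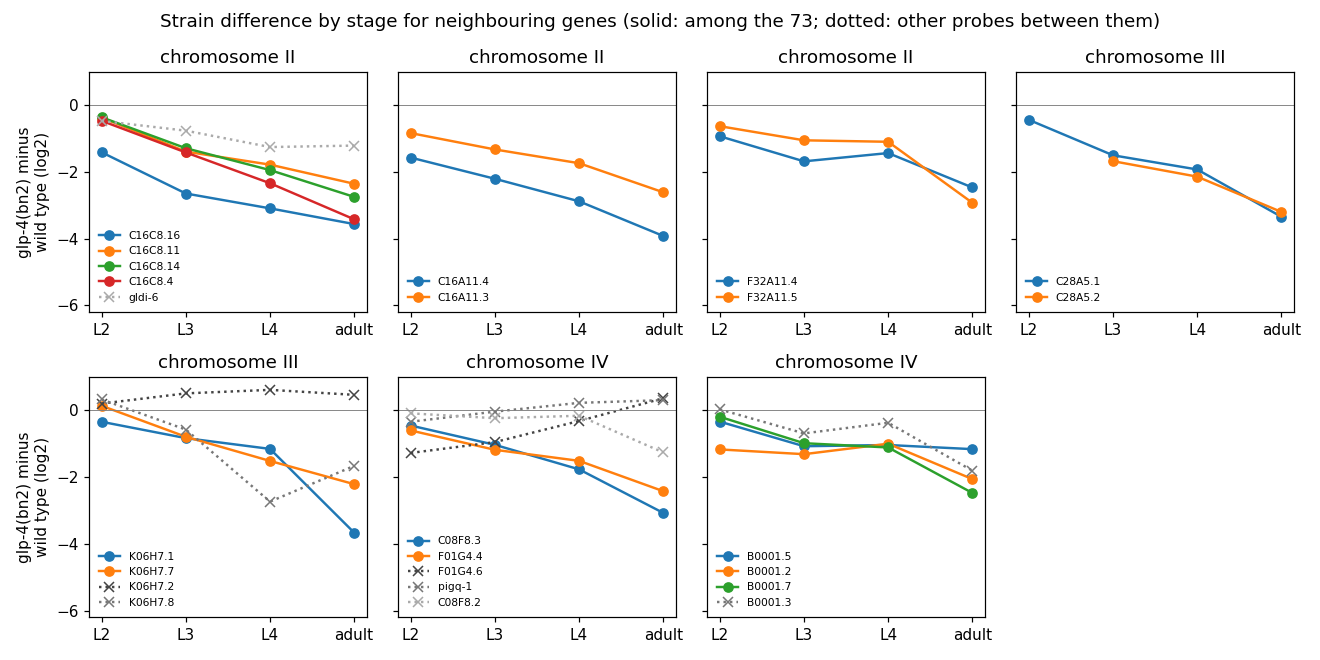
Strain difference by stage, glp-4(bn2) minus wild type in log2 units, for the 7 groups of neighbouring genes (solid lines) and for other probes between them (dotted lines). Differences of the 17 genes lie lower in adults than at L3 in every group, while K06H7.2 stays above 0 and F01G4.6 runs from -1.27 at L2 to 0.37 in adults.

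The sequence-named genes have no product names in the sources used here, so no role is given for them. Genes with known roles that met the same limits came from outside the set, since their symbols carry a hyphen. There were 24 of them. They include mip-1 and lotr-1, which encode LOTUS-domain proteins of germ granules, simr-1 and tost-1, which act in small RNA pathways, syp-6, a component of the synaptonemal complex that joins meiotic chromosomes, pold-1, the catalytic subunit of a replicative DNA polymerase, nse-4 of the SMC5/6 complex, and nucl-1, dkc-1 and nol-56, which act in the nucleolus. At L2 the median strain difference of the 24 was -0.50, and 23 of 24 lay lower in glp-4, beside 51.6% of all probes. limma called 0 of them at L2, with 6 lower at an unadjusted p of 0.05, beside 7.18% of all probes. Others of the 24 lay near 0 at L2, such as pygo-1 and slc-25A18.2, both at -0.09. mip-1 had the smallest of their p values, with a difference of -1.29 ± 0.35 (SE) and an adjusted p of 0.107, and simr-1 was the exception to the direction, at 0.25.

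A list of 18 hyphenated genes holds mainly genes of meiosis, replication, germ granules, small RNA and the nucleolus, with the splicing genes sluh-7 and syf-1 and with fbxl-2, egc-2 and gex-5. Of these 18, 13 are among the 24 genes above, so their counts at L3, L4 and in adults restate the selection. The other 5 are sluh-7, ddx-52, ctf-18, syf-1 and enri-2. limma called 0 of the 18 lower at L2, 10 at L3, 15 at L4 and 18 in adults, and none higher at any stage, with medians of -0.58, -0.92, -1.49 and -2.68. At an unadjusted p of 0.05, 7 of the 18 lay lower at L2, where egc-2 had the largest difference, -1.57 ± 0.49 (SE), with an adjusted p of 0.179. These counts stand beside the shares of all probes given above for each stage. enri-2, the X-linked gene of this list, which encodes a partner of a nuclear Argonaute, differed in its course, with 0.29 at L2, 0.40 at L3, -0.02 at L4 and -1.30 in adults.

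Among markers of other cells, limma made calls from L3 on and none at L2. For 8 sperm genes, 7 of them tested at L2, the median difference was 0.08 at L2, -0.77 at L3, -3.22 at L4 and -2.33 in adults, with 3 of the 7 lower in glp-4 at L2 and 4 higher. limma called 0, 0, 8 and 8 of them lower, beside the shares of all probes given above, with 0 lower at an unadjusted p of 0.05 at L2 and 6 at L3. At that unadjusted p 7.18% of all probes lay lower at L2 and 10.1% at L3. For 2 oocyte genes, memi-3 and oops-1, both among the 24 genes above, the medians were -0.45, -1.08, -1.42 and -2.74, and limma called 0, 0, 2 and 2 lower, with 0 at an unadjusted p of 0.05 at L2 and 2 at L3. For 5 intestine genes the medians were 0.18, 0.49, 1.06 and 1.37, and limma called 0, 2, 4 and 5 higher, with 0 higher and 1 lower at an unadjusted p of 0.05 at L2, where 0.195%, 1.08%, 8.07% and 19.6% of all probes were called higher. For 3 genes of the adult soma the medians were 0.58, 0.55, -0.10 and 0.78, and limma called 0 of them at any stage, with 1 higher at an unadjusted p of 0.05 at L3 and 1 in adults and 0 at L2 and L4. At that unadjusted p 799 of 11112 probes lay higher at L3 and 2895 of 11402 in adults. The array medians of the intestine genes in adults ran between 0.43 and 1.07 in glp-4 and between -0.78 and -0.56 in wild type, and at L2 between -0.08 and 0.32 in glp-4 and between -0.40 and 0.11 in wild type. The part that a larger share of somatic RNA has in the differences of the 73 genes was not tested. The array medians of 13 germline genes at L2 ran between -1.06 and -0.71 in glp-4 and between -0.64 and -0.35 in wild type. Of these 13, 11 are among the 24 genes above, and all but gldi-5 are in the list of 18, so they are no separate evidence. limma called 0 of the 13 at L2, with 5 lower and 0 higher at an unadjusted p of 0.05, beside 7.18% of all probes lower.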

How the data were processed

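The values the authors deposited, 1 for each probe on each array, were read as log2 ratios, red over green. No source used here states the base or the normalization; a fold needs base 2. Red held the reference pool on 29 arrays per the labels, and those signs were turned. It held fem-3 RNA on the other 5. No further scaling was applied.

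The 29 arrays were fitted as 8 group means with limma (version 3.58.1, R 4.3.3) on probes with at least 2 values per group, prior degrees of freedom 2.4, two-sided, adjusted by Benjamini-Hochberg over all probes with a threshold of 0.05. The script was tested on simulated data. p-values measure the spread among these samples, numbered by worm batch in the labels. In glp-4 L2 replicate 2, batches 2 and 4 were combined. The labels repeat batch numbers over the stages of a strain, so L2 arrays may share worm batches with arrays used in the selection. The fit took all 29 arrays as separate. Deviations of same-numbered arrays of both strains correlated by -0.02 to 0.08 at L2 and by -0.05 to 0.22 over all stages, over 0.1 in 6 of 14 pairs, and the labels do not say that strains shared a batch, so numbers were not treated as pairs. Precision is limited by the number of arrays. Spot intensities were not used here.

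Names came from the probe annotation, which names 5582 of 13323 probes, 5559 of them matched by gene ID to RefSeq (assembly WBcel235). Of 288 probes that met the limits, 189 had no name, 24 a hyphenated symbol and 2 lay on X. Genes were named in the text by rank: the largest 12 and the nearest to the limit at L3, the extremes at L2, in the fem ratio and in growth from L3 to adults. The genes, lists and this naming rule were chosen with earlier results of these data known. Genes named as neighbours, and those at the edges of a count, were chosen after their values were seen. Planned product classes and promoter motifs were not analysed here. Alternatives tried were a replicate block, the L2 arrays alone, median centring, quantile normalization, complete probes, reference wordings, arrays with doubtful labels and each array left out in turn.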

Additional observations from a re-analysis of the deposited data

Results flagged for a closer look

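Single arrays stood apart in 11 of 172 groups of 4 or 5 arrays examined over the genes named, where chance gives about 1 in 20. The gap of that array to its nearest neighbour, as a share of the range of its group, passed Dixon's limit. In glp-4 these were C16C8.16 at L4 replicate 1 (-3.89, below the others), F21F3.4 at L3 replicate 1 (-1.15, above), F32A11.4 at L4 replicate 3 (-0.85, above), B0001.2 at L4 replicate 1 (-1.56, below) and K06H7.1 at L3 replicate 4 (-1.95, below). In wild type they were C42C1.8 at L3 replicate 4 (-1.29, below), and K06H7.1 (0.065) and F53C11.5 (0.55) at L4 replicate 2, both above. On the fem arrays they were K08F4.3 on replicate 1 (0.72), ZC434.8 on replicate 2 (-0.73) and C04C3.4 on replicate 4 (1.27).

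T23B5.3 was flagged because its arrays separated the strains in opposite directions at different stages. Its strain difference at L2 was 0.20 ± 0.335 (SE), with an adjusted p of 0.919 by limma, so no difference was shown there. Every glp-4 array lay above every wild-type array at L2, as in 1012 of 10272 probes. At L4 and in adults every glp-4 array lay below every wild-type array. The difference between stages was not tested.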

How the results depend on the processing

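The median L2 difference of the genes stayed between -0.49 and -0.37 when any L2 array was left out, and the L3, L4 and adult medians stayed within -1.27 and -0.94, -1.69 and -1.27, and -2.74 and -2.53 over 34 alternatives each. The number called at L2, which was 1, was 2 with the replicate block (C16A11.4 and F13D12.5), 5 after quantile normalization (these and T07C4.3, B0001.2 and C16C8.16), and 0 both with the L2 arrays fitted alone and with probes complete on all 6. At an unadjusted p of 0.05 these last 2 settings had 26 and 17 of the genes lower and 0 higher. Leaving out 1 array gave 0 to 2: 2 without glp-4 replicate 1 (C16A11.4 and B0001.2 of 68, where 2.46% of all probes were called lower), and 0 without each of the other 5, with 12 to 15 lower at an unadjusted p of 0.05. Over all probes 43 were called at L2, 46 with the replicate block, 222 after quantile normalization, 10 on complete probes, 0 with L2 alone (771 lower and 453 higher unadjusted), and 10 to 299 with 1 array left out, 299 without glp-4 replicate 1 and 10, 11, 13, 14 and 16 without the others. The cause was not tested. With the block, 41 of the genes were called at L3 (38 shared with the 40), 71 at L4 and 73 in adults, 9 of the list of 18 were called at L3 in place of 10, and 1 sperm gene at L3 in place of 0.

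L2 values near 0 changed sign without being called. F36G9.13 was 0.025 after quantile normalization. With 1 L2 array left out, F36G9.13 ran from -0.159 to 0.058, ZC434.8 from -0.311 to 0.017, T05F1.2 from -0.298 to 0.209, C04C3.4 from -0.095 to 0.145 and C42C1.8 from -0.507 to 0.402.

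The number of genes selected, 73, was 70 after median centring, 66 with at least 3 values per group, 88 on mixed control arrays alone (57 shared), 51 on REF-vjr arrays alone (47 shared) and 74 without wild-type L4 replicates 1 and 4 (72 shared). Leaving out 1 array gave 58 (wild-type L3 replicate 2) to 82 (wild-type L3 replicate 4). A setting added after seeing the data, without wild-type L4 replicate 2 and L3 replicate 4, gave 72 (66 shared). The number of arrays, 2 or 3 per strain for some genes, limits what L2 can show.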
